A study of Mus musculus with 15 samples.

Results

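Uterine transcripts 24 hr after an injection of estradiol (E2) were compared with those 2 hr after it, in 6 of the 15 arrays analysed here: 3 arrays of E2 at 24 hr and 3 arrays of E2 at 2 hr. All mice were adult females, 10 weeks of age or older, that had been ovariectomized and then left for 10 to 14 days before a single intraperitoneal injection. The treated mice received 250 ng of E2 in 100 μL of saline, and each array measured RNA of 1 uterus. The 24 hr group was labelled C57bl6/J, whereas the 2 hr group was labelled C57bl6/Jx129 and WT for *Esr1*, the gene of estrogen receptor α. The 3 arrays of mice given saline alone, collected at 24 hr and labelled C57bl6/J, served as the vehicle level for both times, because no saline array at 2 hr was analysed here. A further 6 arrays of the weak estrogen estriol (E3), 250 ng at 2 and at 24 hr in C57bl6/J mice, gave the same contrast of time for another compound. The study also followed a panel of early and a panel of late transcripts, which are named below.

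Estrogen reaches the uterus of an ovariectomized mouse as a sudden signal. E2 binds estrogen receptor α, which regulates transcription at estrogen response elements or through other DNA-bound factors such as AP-1 (Fos and Jun dimers). The tissue then responds in phases. Early, water enters and transcripts of transcription factors and signaling proteins change. Later, the epithelium copies its DNA, divides and secretes.

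Levels are given as normalized log2 intensity, that is, log2 of the processed spot intensity minus log2 of the array's 75th percentile, so that 0 is the 75th percentile of an array. Differences are in log2 units, and an error after ± is the standard error (SE) of the limma fit with 3 arrays a group. A difference of at least 2-fold with a limma p-value under 0.001 was called. The p-values measure only the spread between these samples. In RNA from whole uterus, fewer cells of a type and less RNA per cell cannot be told apart.

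The 2 groups of arrays differed in more than time. The E2 2 hr arrays lay on 2 slides that held no other group analysed here and were read on another scanner and scan day than the other 12 arrays, and strain label, slides, scanner and time cannot be told apart for them. The 75th percentile was 3646 to 4212 intensity units at 2 hr and 3382 to 3821 at 24 hr, and 79.6% to 81.8% of the probes were well above background on these 6 arrays. Across tested probes, the 2 hr arrays correlated with each other at 0.989 to 0.993, the 24 hr arrays at 0.989 to 0.992, and arrays of different times at 0.926 to 0.937. All 14 markers of uterine epithelium, 12 of stroma and 8 of smooth muscle were well above background on at least 1 array of each E2 and saline group. Markers of other tissues were not even across arrays. The summed level of 20 exocrine pancreas genes, relative to the 75th percentile, was 476 on E2 24 hr replicate 2, 7.45 on replicate 3 and 0.744 on replicate 1, against 0.395 to 0.554 at 2 hr. The summed level of 13 skeletal muscle genes was 23.8 to 28.7 at 24 hr, 4.28 to 4.67 at 2 hr and 7.64 to 8.7 on saline. At 24 hr this sum rested largely on *Tnni2*, with a mean log2 level of 4.05, whereas *Ckm* was at -5.23. The summed level of 11 fat genes was 13.8 to 21.2 at 24 hr, 31.7 to 55.6 at 2 hr and 19.7 to 99.8 on saline. On the saline arrays 29 liver genes summed to 16.6 to 40.8, against 3.73 to 7.64 on the 6 E2 arrays. Genes of these lists were kept out of the genes chosen by size below, and the part of such tissue in other transcripts was not tested.

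Transcripts after E2 fell into an early and a late wave, and 2678 of the 3675 probes called above saline at 2 hr were called lower at 24 hr than at 2 hr. Both calls use the same 3 E2 2 hr arrays, so a probe that reads high on those arrays alone, from any source, meets both. The overlap is thus no separate evidence of a return. Of 34766 probes tested, 4821 were higher at 24 hr than at 2 hr (13.9%) and 5983 were lower (17.2%), by limma with a largest Benjamini-Hochberg adjusted p of 0.00194 among called probes. With 1 probe a gene, the brightest, 3219 of 22985 genes were higher (14%) and 3752 lower (16.3%). Among the 11374 bright probes, whose mean reached the 75th percentile in at least 1 of the 2 groups, 1695 were higher (14.9%) and 1711 lower (15%). The 3 arrays of one time did not overlap the 3 of the other for 72.9% of probes, so a lack of overlap is common here. Against saline, 10.6% of probes were called higher and 10.7% lower at 2 hr, and 6.93% were called higher and 11.1% lower at 24 hr. With another background correction (normexp) the counts between the times were 3210 higher and 2969 lower, and against saline at 24 hr 1571 higher and 1317 lower, so that the balance of higher and lower turned. The balance also moved with the scaling: without any, 4031 probes were higher and 6736 lower between the times, and 4189 higher and 3108 lower at 2 hr against saline, whereas scaling to the 75th percentile of detected probes gave 3297 higher and 4160 lower at 2 hr against saline. The median difference over all probes was 0.02.

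Putting the comparisons together sorted probes into classes, which the calls define and which carry no test of their own. A fading rise (above saline at 2 hr, lower at 24 hr than at 2 hr) held 2678 probes, 942 of them bright, and 2232 of the 2678 were within 2-fold of saline at 24 hr. A late rise (above saline at 24 hr and above 2 hr) held 1553 probes, 665 bright, of which 1410 had not been called at 2 hr. A held rise (above saline at both times, the times within 2-fold) held 292 probes, 99 bright. Falls below saline divided the same way into 1841 probes that recovered, 1970 that fell late and 800 that were held, of which 400, 313 and 37 were bright. These counts depended on the background correction. With normexp the falls were 1008, 573 and 284, so late falls no longer outnumbered recovering falls, and there were 1343 fading and 136 held rises. Brightness was read from the E2 groups alone, so a fall itself takes probes out of the bright set, and the bright counts of falls and rises are not comparable. A probe can be in 2 classes: 325 probes of the fading rise went below saline at 24 hr and so were also late falls, and 125 probes were both recovering falls and late rises. The remaining 3212 probes called between the times were in no class.

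**Figure D1:**
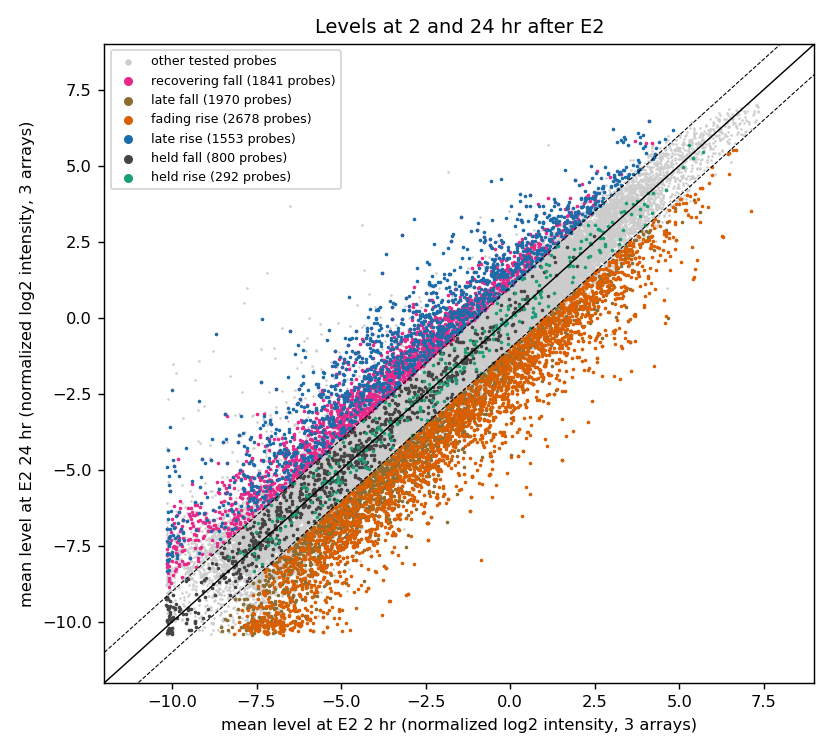
Mean normalized log2 intensity of each tested probe at E2 2 hr (x axis) and E2 24 hr (y axis), 3 arrays each. The solid line marks equal levels and the dashed lines 2-fold. The 2678 probes of the fading rise lie below the lower line and the 1553 of the late rise above the upper line, while held rises and held falls lie between the lines.

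*Fos*, of the panel of early transcripts and on chromosome 12, encodes a subunit of AP-1. It read 3.67, 3.22 and 2.86 on the E2 2 hr arrays, -1.94, -2.21 and -1.90 on the E2 24 hr arrays and -2.70, -2.52 and -2.24 on the saline arrays. The 2 hr arrays stood far above both other groups, and the 24 hr arrays lay just above all saline arrays. The difference of 24 hr minus 2 hr was -5.27 ± 0.23 (adjusted p = 3.4e-09), or 38.6-fold. Among the 8 largest fading rises, *Egr3* (chromosome 14), an immediate early zinc finger factor, read 1.43, -0.04 and 0.38 at 2 hr, -4.41, -5.10 and -4.78 at 24 hr and -4.49, -3.57 and -4.15 on saline, a fall of 5.36 ± 0.39 on the log2 scale between the times. All 3 of the E2 2 hr arrays were above the E2 24 hr and saline arrays. A second, dimmer probe for *Egr3* differed by only -0.37.

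*Arc* (chromosome 15), an immediate early gene best known from neurons, read 2.62, 1.61 and 1.39 at 2 hr, -3.66, -3.75 and -3.72 at 24 hr and -3.66, -3.16 and -3.56 on saline. The 24 hr arrays lay at or just below the lowest saline array, with a difference between the times of -5.58 ± 0.27 (adjusted p = 6.3e-09). *Has1* (chromosome 17) encodes a hyaluronan synthase of the cell membrane. It read 2.35, 1.43 and 1.21 at 2 hr against -3.93, -3.94 and -3.84 at 24 hr and -4.67, -4.49 and -4.69 on saline, and fell by 5.57 ± 0.22. Its 24 hr arrays, though low, all lay above the saline arrays, and its second probe fell by 3.51. *Gdf15* (chromosome 8), a stress-induced ligand of the TGF-β superfamily, read 3.33, 3.54 and 3.82 at 2 hr, -1.74, -1.90 and -1.58 at 24 hr and -2.49, -2.19 and -3.09 on saline. The 2 hr arrays agreed closely and the difference was -5.30 ± 0.24 (adjusted p = 5.1e-09).

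*Slc9a2* (chromosome 1), a sodium and proton exchanger of epithelial membranes, read 0.92, 2.06 and 1.65 at 2 hr, -4.42, -4.79 and -4.79 at 24 hr and -3.22, -3.50 and -3.04 on saline. It fell by 6.21 ± 0.27 and ended below every saline array, with a difference of -1.41 ± 0.27 from saline (adjusted p = 0.00067). Its second probe fell by 3.75. *Myh7* (chromosome 14), a slow myosin heavy chain of heart and slow muscle, read -0.20, 0.36 and 1.28 at 2 hr, -5.71, -5.47 and -5.52 at 24 hr and -4.89, -4.88 and -4.91 on saline, a fall of 6.04 ± 0.32. Its second probe fell by 6.4. The summed skeletal muscle markers went the other way, being higher at 24 hr.

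*Myod1* (chromosome 7), a master factor of skeletal muscle, had 2 usable values at 2 hr, -0.62 and 1.30, because the spot of replicate 1 was set aside by an outlier flag (its value was 0.99). It read -6.71, -6.29 and -6.52 at 24 hr and -5.99, -6.57 and -6.46 on saline, and the fit from the remaining arrays gave -6.85 ± 0.42. Resting on 1 array at 2 hr, the value was -7.81 or -5.88. *Dpf1* (chromosome 7), a chromatin regulator gene listed on the array as Neud4, likewise had 2 values at 2 hr, 1.90 and 2.68, the set-aside spot of replicate 1 reading 2.52. It read -3.44, -3.36 and -3.54 at 24 hr and -3.41, -3.58 and -3.19 on saline, a difference of -5.73 ± 0.20. In both genes the set-aside spot was also far above the 24 hr and saline arrays. For neither gene did the E3 arrays show a change of this size, with differences of 0.03 and -1.09 between 24 and 2 hr.

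**Figure D2:**
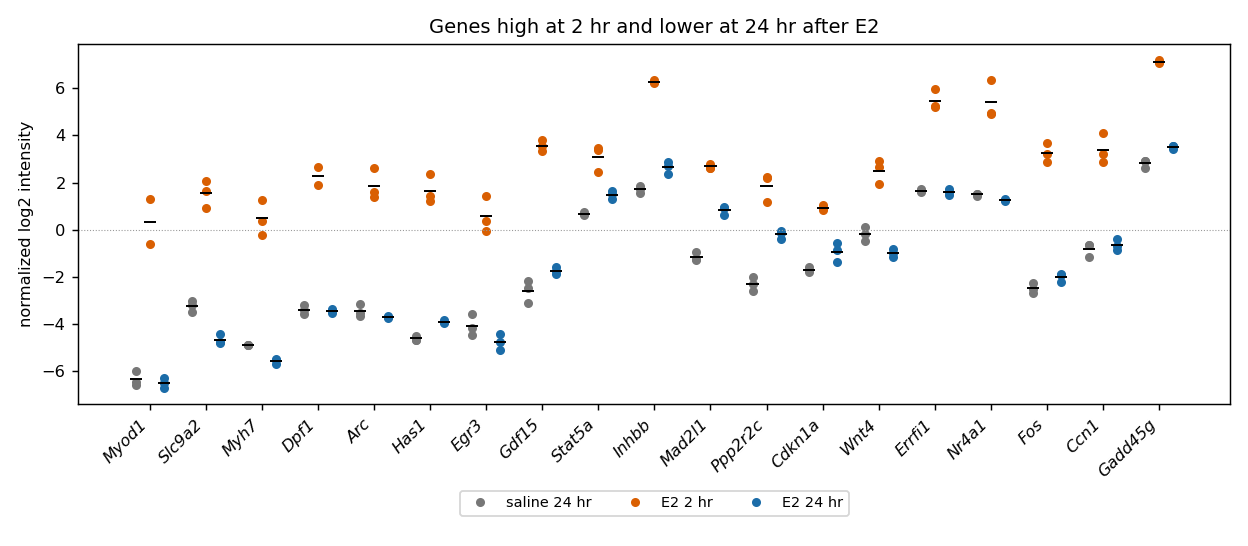
Normalized log2 intensity (y axis) on each saline 24 hr, E2 2 hr and E2 24 hr array for the 8 largest fading rises and the panel of early transcripts. Points are single arrays and black bars are group means; 2 points are drawn at 2 hr for *Myod1* and *Dpf1*. In each gene the 2 hr arrays lie above those of both other groups.

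The early wave was broad among signaling genes, by lists drawn up with earlier results known. Of 25 immediate early transcription factors measured, 20 were lower at 24 hr, against 16.3% of all genes, and the other 5 were not called. Their median difference was -2.23, and 19 of the 25 had been called above saline at 2 hr, against 10.6% of all probes. Besides *Fos* and *Egr3*, *Maff* fell by 4.35, *Atf3* by 4.02, *Ier2* by 3.17 and *Junb* by 2.23. *Myc* was an exception, with a difference of -0.27 and arrays that overlapped.

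Inhibitors that feed back on growth factor and cytokine signaling also had early members. Of 24 measured, 14 were lower at 24 hr, 2 were higher and 8 were not called, against 16.3% of all genes lower and 14% higher, with a median of -1.33. *Spry4*, a Sprouty inhibitor of receptor tyrosine kinase signaling, fell by 4.65 ± 0.32, and *Socs1*, which blocks cytokine receptor kinases, fell by 3.99 ± 0.18. The 2 that were higher at 24 hr were *Rgs2* (1.43 ± 0.20), a regulator of G protein signaling, and the phosphatase gene *Dusp14* (1.06 ± 0.18). *Rgs2* had been below saline at 2 hr, with means of 5.50 on saline, 3.29 at 2 hr and 4.72 at 24 hr.

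Of 20 growth arrest and damage response genes, 12 were lower at 24 hr, against 16.3% of all genes, 1 was higher and 7 were not called, and 10 had been called above saline at 2 hr, against 10.6% of all probes, with a median of -1.39. *Plk2*, a Polo-like kinase induced by serum and stress, read 5.01, 4.21 and 4.48 at 2 hr and 0.05, -0.45 and -0.12 at 24 hr, against 0.43, 0.15 and 0.23 on saline. The 24 hr arrays lay below all saline arrays, and the fall between the times was 4.74 ± 0.22. *Gadd45g* read 7.09, 7.13 and 7.19 at 2 hr, 3.43, 3.57 and 3.56 at 24 hr and 2.94, 2.90 and 2.64 on saline. Its 24 hr arrays remained above all saline arrays although they had fallen by 3.62 ± 0.10 (adjusted p = 6.3e-10). *Ccng1*, the one member called higher at 24 hr, changed by 1.33 ± 0.09.

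Secreted factors had members in both directions. Of 38 measured, 14 were lower at 24 hr, against 16.3% of all genes, and 5 were higher, a share near the 14% of all genes, with a median of -0.57. *Pgf*, a placental growth factor of the VEGF family, fell by 5.16 ± 0.34, *Vegfa* by 3.03 ± 0.17, *Hbegf* by 3.72 ± 0.15 and *Il11* by 3.99 ± 0.20. *Fgf7*, a stromal mitogen for epithelium, was higher at 24 hr by 2.29 ± 0.34, and *Igfbp5*, which binds insulin-like growth factors, by 2.06 ± 0.18. *Fgf7* had fallen below saline at 2 hr, with means of -2.83 on saline, -4.63 at 2 hr and -2.35 at 24 hr, whereas *Igf1* differed by 0.36 and was not called.

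All 11 transcripts of the early panel fell between the times, with a median of -3.62. The study chose this panel as early, so its direction is not independent evidence. The panel divides by how far each gene returned. *Errfi1*, an inhibitor of the EGF receptor, read 5.98, 5.20 and 5.23 at 2 hr, 1.49, 1.75 and 1.59 at 24 hr and 1.59, 1.74 and 1.65 on saline, so its 24 hr arrays overlapped saline. *Ppp2r2c*, a regulatory subunit of protein phosphatase 2A, read 1.16, 2.24 and 2.20 at 2 hr, -0.37, -0.06 and -0.16 at 24 hr and -2.01, -2.62 and -2.29 on saline, and stayed 2.11 ± 0.32 above saline. *Mad2l1*, a spindle checkpoint gene, read 2.63, 2.64 and 2.79 at 2 hr, 0.92, 0.61 and 0.96 at 24 hr and -1.26, -0.93 and -1.30 on saline, and likewise stayed 2.00 ± 0.16 above it.

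The remaining 6 of these transcripts besides *Fos* and *Gadd45g* fell by 1.62 to 4.15 log2 units. *Nr4a1* (an orphan nuclear receptor) changed by -4.15 ± 0.30, *Ccn1* (a matrix-associated signaling protein, listed on the array as Cyr61) by -4.05 ± 0.26, *Inhbb* (an activin and inhibin subunit) by -3.64 ± 0.13 and *Wnt4* (a Wnt ligand) by -3.49 ± 0.23. *Cdkn1a*, the p21 inhibitor of cyclin-dependent kinases, changed by -1.86 ± 0.16, and *Stat5a* by -1.62 ± 0.25 (adjusted p = 7.5e-05). *Stat5a* was no longer called when the E3 arrays were left out of the fit.

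Some genes of receptor action and of muscle and fluid were also early, although the muscle and fluid lists had calls in both directions, as given below. Of 23 nuclear receptors and coregulators, 6 were lower at 24 hr and 2 higher, *Rarb* (1.63) and *Nr2f2* (1.42), against 16.3% and 14% of all genes. Both of the higher genes were still below saline at 24 hr in the mean. Means on saline, at 2 hr and at 24 hr were -1.17, -2.98 and -1.35 for *Rarb* and 3.93, 2.03 and 3.44 for *Nr2f2*. *Greb1*, a known estrogen-induced coregulator gene, fell by 3.98 ± 0.17, *Pparg* by 4.24 ± 0.23 and *Pgr*, the progesterone receptor, by 1.35 ± 0.11 (-3.55 by a second probe), while *Esr1* differed by -0.78 and was not called. *Pparg* is also a fat cell gene, and its means were -1.14 on saline, 2.46 at 2 hr and -1.79 at 24 hr. Summed fat markers were 19.7 to 99.8, 31.7 to 55.6 and 13.8 to 21.2 in the same order, and their part was not tested. *Oxtr*, the oxytocin receptor, read 0.27, -0.01 and -0.05 at 2 hr, -3.75, -4.17 and -3.71 at 24 hr and -3.89, -4.18 and -3.64 on saline, and fell by 3.94 ± 0.18, back to the saline level. Of the water channels, *Aqp5* fell by 2.36 ± 0.20 but stayed 2.07 ± 0.20 above saline, and *Aqp8* fell by 1.91 ± 0.30.

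Ribosome biogenesis had early members. Of 45 genes, 21 were above saline at 2 hr, against 10.6% of all probes, and 11 at 24 hr, against 6.93%, with 4 held rises and 2 late rises. Between the times 12 were lower and 2 higher at 24 hr, against 16.3% and 14% of all genes, with a median of -0.20. *Rrs1* fell by 1.85 ± 0.09 and *Ddx21* by 1.76 ± 0.12, whereas *Npm3* was higher by 1.44 ± 0.13 and *Bop1* by 1.12 ± 0.13. The transport gene *Slc7a5*, the large neutral amino acid transporter, fell by 3.04 ± 0.10.

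Promoter sequence was read for members of both waves, as the 250 bases before the start in RefSeq (GRCm38.p6). Only 175 of 313 bright genes of the fading rise with a difference of at least 4-fold, and 156 of 221 such genes of the late rise, matched the table. These are 55.9% and 70.6%, under the 80% set for a comparison, so a share of each class holding a motif is void and is not given. A pair of early promoters is shown because each holds the cyclic AMP response element, searched as the palindrome TGACGTCA and printed here in capitals. That motif is in 1.6% of all 27025 promoters of the same length. *Has1* lies at chr17:17855189-17855438 on the minus strand and *Plk2* at chr13:110394794-110395043 on the plus strand.
Has1: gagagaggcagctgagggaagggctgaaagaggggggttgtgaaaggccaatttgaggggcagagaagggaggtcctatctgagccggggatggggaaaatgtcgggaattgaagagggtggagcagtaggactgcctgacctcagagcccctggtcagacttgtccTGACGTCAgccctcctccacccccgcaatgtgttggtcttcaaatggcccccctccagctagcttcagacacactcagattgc
Plk2: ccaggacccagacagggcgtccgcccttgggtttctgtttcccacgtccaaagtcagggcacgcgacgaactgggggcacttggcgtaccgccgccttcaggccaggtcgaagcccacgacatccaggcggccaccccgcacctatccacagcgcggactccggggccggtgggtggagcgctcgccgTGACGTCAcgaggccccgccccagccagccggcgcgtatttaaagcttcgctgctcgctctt

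The match starts 83 bases before the start in *Has1* and 62 bases before it in *Plk2*. A match is a description of letters and shows no binding. The late promoters of *Ube2c*, *Ccnb2* and *Cdk1*, from the panel of late transcripts, are shown because each holds several CCAAT boxes. The search was for CCAAT on either strand, so that ATTGG counts, and the matches are in capitals. This motif is in 34.5% of all promoters, and in 10.5% at least 2 times. *Ube2c* (chr2:164769679-164769928, plus strand) holds 6 matches, a pair of which overlap, *Ccnb2* (chr9:70421555-70421804, minus strand) holds 3 and *Cdk1* (chr10:69352913-69353162, minus strand) holds 3. All 5 promoters were picked after their matches were seen.
Ube2c: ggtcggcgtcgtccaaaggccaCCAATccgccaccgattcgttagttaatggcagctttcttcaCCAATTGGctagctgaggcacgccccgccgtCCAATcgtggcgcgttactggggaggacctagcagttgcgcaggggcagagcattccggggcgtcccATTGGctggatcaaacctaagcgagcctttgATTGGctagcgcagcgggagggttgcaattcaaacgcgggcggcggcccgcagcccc
Ccnb2: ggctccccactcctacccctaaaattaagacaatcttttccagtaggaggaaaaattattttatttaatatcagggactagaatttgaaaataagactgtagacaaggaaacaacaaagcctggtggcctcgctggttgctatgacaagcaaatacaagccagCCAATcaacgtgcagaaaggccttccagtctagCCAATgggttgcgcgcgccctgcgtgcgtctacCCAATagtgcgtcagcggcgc
Cdk1: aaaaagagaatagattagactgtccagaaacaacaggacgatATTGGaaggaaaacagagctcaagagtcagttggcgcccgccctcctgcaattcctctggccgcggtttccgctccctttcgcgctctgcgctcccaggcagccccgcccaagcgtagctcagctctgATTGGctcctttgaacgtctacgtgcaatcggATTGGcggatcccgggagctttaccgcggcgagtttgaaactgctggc

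Among the 8 largest late rises, *Sprr2f* (chromosome 3) encodes a small proline-rich protein of the cornified envelope and is strongly estrogen-responsive in mouse uterus. It read 4.56, 4.38 and 4.75 on the E2 24 hr arrays, -0.78, -0.71 and 0.66 on the E2 2 hr arrays and -1.58, -1.58 and -1.42 on the saline arrays. The 24 hr arrays were tightly grouped and far above the rest, by 4.84 ± 0.36 over 2 hr (adjusted p = 1.6e-07), or 28.6-fold. *Sprr1a* (chromosome 3) of the same family read 1.68, 1.43 and 1.86 at 24 hr, -3.36, -2.92 and -1.93 at 2 hr and -4.54, -4.94 and -4.74 on saline, and was higher by 4.39 ± 0.51 at 24 hr than at 2 hr. Its 2 hr arrays also lay above all saline arrays, by 2.00 ± 0.51, which was not called. Probes of this gene family are close in sequence, and signal from its other members cannot be told apart.

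*Krt14* and *Krt5*, the keratin pair of basal and stratified epithelium, were also in the late rise. Their spread between arrays was widest at E3 24 hr, where *Krt14* read 0.18, 4.11 and -0.34 and *Krt5* read 2.33, 5.32 and 1.96. *Krt14* (chromosome 11) read 2.34, 4.07 and 3.38 at 24 hr, -3.24, -2.90 and -2.36 at 2 hr and -1.06, -2.90 and -2.64 on saline, a difference of 6.10 ± 1.02 (adjusted p = 0.00016). *Krt5* (chromosome 15) read 4.30, 4.81 and 4.43 at 24 hr, -0.70, -0.93 and -0.06 at 2 hr and 0.79, -1.30 and -0.73 on saline, a difference of 5.08 ± 0.86 (adjusted p = 0.00018). In both genes saline replicate 1 was the highest saline array, and no saline or E2 2 hr array reached the E2 24 hr arrays. *Muc20* (chromosome 16), a membrane mucin, read 2.74, 2.67 and 2.84 at 24 hr, -2.29, -1.50 and -1.25 at 2 hr and -0.77, -1.21 and -1.14 on saline, and was higher by 4.42 ± 0.23.

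*Trpv6* (chromosome 6), the epithelial calcium channel, moved in both directions. It read -1.90, -2.13 and -1.97 on saline, -3.29, -4.24 and -3.83 at 2 hr and 1.51, 1.40 and 1.48 at 24 hr. The 3 groups did not overlap: the gene first went 1.78 log2 units down from saline (difference -1.78 ± 0.23) and then ended above it, 5.25 ± 0.23 higher at 24 hr than at 2 hr (adjusted p = 3.8e-09). *Crtac1* (chromosome 19), a matrix protein of cartilage, read 1.83, 2.24 and 2.25 at 24 hr, -4.29, -3.19 and -3.50 at 2 hr and -3.67, -3.87 and -4.41 on saline, a difference of 5.76 ± 0.26. Its second probe differed by 3.52.

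**Figure D3:**
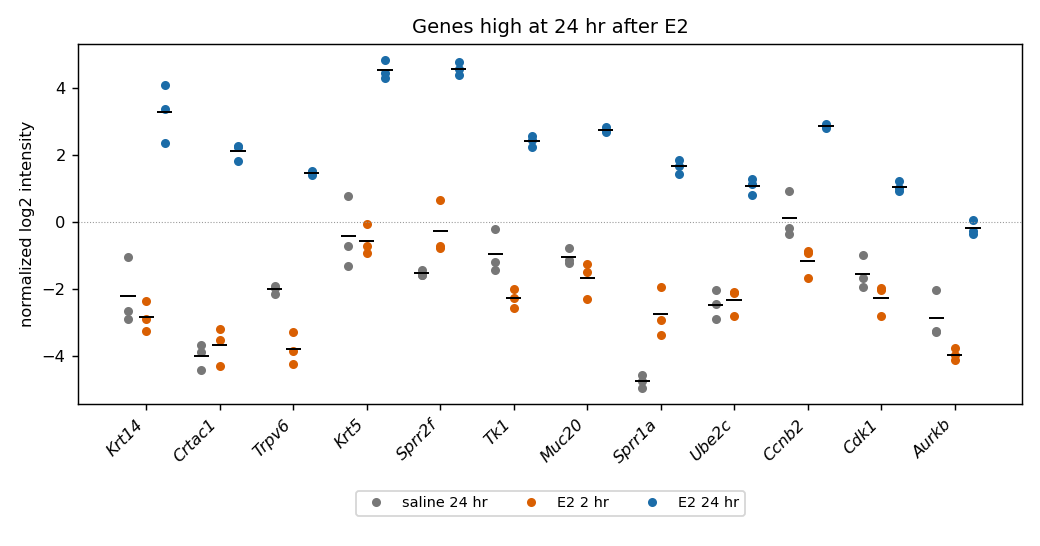
Normalized log2 intensity (y axis) on each saline 24 hr, E2 2 hr and E2 24 hr array for the 8 largest late rises and the late transcripts *Ube2c*, *Ccnb2*, *Cdk1* and *Aurkb*. Points are single arrays and black bars are group means. The 24 hr arrays lie above every 2 hr array in each gene, and the 2 hr arrays lie below all saline arrays for *Trpv6*, *Tk1*, *Ccnb2*, *Cdk1*, *Aurkb* and *Muc20*.

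Of the secretory and barrier genes of the uterine epithelium, 23 of 35 were higher at 24 hr, against 14% of all genes, and the other 12 were not called. Their median was 2.06 between the times and 0.00 between 2 hr and saline. *Sprr2d* was higher by 7.28 ± 0.52, *Muc1* by 4.04 ± 0.18, *Lcn2* by 3.21 ± 0.31 and *Ltf*, the lactotransferrin gene long used as a uterine estrogen marker, by 2.59 ± 0.40. Summed epithelial markers were 64.6 to 88.2 at 2 hr and 188 to 200 at 24 hr (86.9 to 118 on saline). They share *Krt8*, *Krt18*, *Krt19* and *Cldn7* with this list, so the sum is not independent of it, and their part in these rises was not tested.

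Most genes of the mitosis list were in the late wave. Of 54 mitosis genes, 49 were higher at 24 hr, against 14% of all genes, with a median of 3.1, and 48 of the 54 were in the late rise class. At 2 hr their median was -0.65 against saline. *Ccnb2* (chromosome 9), a mitotic cyclin, read 2.93, 2.86 and 2.79 at 24 hr, -1.67, -0.92 and -0.88 at 2 hr and -0.17, 0.94 and -0.37 on saline. The 24 hr arrays lay within a narrow range, whereas saline arrays were scattered, and the difference between the times was 4.01 ± 0.36 (adjusted p = 6.8e-07). Saline replicate 2 was the highest saline array here and for *Tk1*, *Cdk1*, *Aurkb* and *Kif22*. Summed B cell and lymph node markers were 38.2 on that array, 6.02 and 6.6 on the other saline arrays, 3.94 to 5.27 at 2 hr and 6.03 to 21.2 at 24 hr. Their part in the division genes was not tested. *Top2a*, which untangles DNA before division, was higher by 4.12 ± 0.45, and the proliferation marker *Mki67* by 2.90 ± 0.43. *Mad2l1*, of the early wave described above, was the only one of the 54 called lower.

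The panel of late transcripts includes 3 more genes of division. *Cdk1*, the mitotic kinase, read 0.92, 1.01 and 1.23 at 24 hr, -2.80, -2.03 and -1.97 at 2 hr and -1.68, -0.99 and -1.94 on saline, a difference of 3.32 ± 0.31. *Ube2c*, which tags mitotic cyclins for destruction, differed by 3.41 ± 0.37, and *Aurkb*, a chromosomal passenger kinase, by 3.77 ± 0.38. These and *Ccnb2* all rose. The study chose this panel as late, so its direction is not independent evidence.

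Of 52 DNA replication genes, 40 were higher at 24 hr, against 14% of all genes, and 12 were not called, with a median of 1.57. In the late rise class were 31 of the 52. *Tk1* (chromosome 11), the thymidine kinase of S phase, read 2.23, 2.56 and 2.44 at 24 hr, -2.55, -2.25 and -1.99 at 2 hr and -1.20, -0.21 and -1.43 on saline. The 2 hr arrays lay below every saline array, and the difference between the times was 4.68 ± 0.34 (adjusted p = 1.2e-07). *Mcm10*, needed to start replication forks, was higher by 4.19 ± 0.36, *Cdc6* by 3.48 ± 0.39 and *E2f1* by 3.23 ± 0.36. *Pcna* differed by 0.75 and was not called.

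Of 25 cholesterol synthesis genes, 19 were higher at 24 hr, against 14% of all genes, and the other 6 were not called, with a median of 1.58. *Fdps*, which makes farnesyl diphosphate, was higher by 3.54 ± 0.13, and *Mvk*, mevalonate kinase, by 3.33 ± 0.17. In fatty acid synthesis 3 of 18 were higher, near the 14% of all genes. They were *Fads2* (2.01 ± 0.11), *Fads1* (1.93 ± 0.13) and *Gpam* (1.44 ± 0.10), and *Agpat2* was lower (-1.72 ± 0.26).

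Genes that supply amino acids, proteins and energy are to be read against 14% of all genes higher and 16.3% lower. Of 29 aminoacyl tRNA synthetase and amino acid synthesis genes, 12 were higher at 24 hr and 17 were not called, with a median of 0.85. *Pycr1* and *Aldh18a1*, both of proline synthesis, were higher by 3.43 ± 0.30 and 2.39 ± 0.13. Of 27 genes of protein folding, 3 were higher, *Sdf2l1* (2.84 ± 0.48) and *P4hb* (1.49 ± 0.09) among them, and 7 were lower, *Atf4* (-1.98 ± 0.10) and *Herpud1* (-1.51 ± 0.13) among them. In glycolysis 5 of 18 were higher, *Pkm* (1.63) among them, and 3 lower, *Hk2* (-1.55) among them. The 3 higher in protein folding and the 3 lower in glycolysis are shares near those of all genes. In mitochondrial respiration 6 of 31 were higher, also near the share of all genes, with a median of 0.75.

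Collagens and other matrix genes had late members. Of 40, 19 were higher at 24 hr, 4 were lower and 17 were not called, against 14% of all genes higher and 16.3% lower, and 13 were above saline at 24 hr, against 6.93% of all probes. Between the times the list had a median of 1.00. *Col6a2* was higher by 2.62 ± 0.12 (but its second probe differed by -0.47), *Col1a1* by 2.43 ± 0.26 and *Spp1*, the osteopontin gene, by 2.77 ± 0.61. The lower members were *Has1*, *Adamts1* (-2.70 ± 0.21), *Timp3* (-1.94 ± 0.13) and *Thbs1* (-1.63 ± 0.30). Summed stromal markers were 209 to 243 at 2 hr and 306 to 325 at 24 hr (240 to 289 on saline). They share *Col1a1*, *Col3a1*, *Dcn* and *Lum* with this list, and their part was not tested.

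Some genes rose by 2 hr and were still high at 24 hr. *Chst8* (chromosome 7), a sulfotransferase of glycoprotein hormones, read -0.22, 1.17 and 0.63 at 2 hr, 0.34, 0.66 and 0.80 at 24 hr and -3.40, -3.93 and -3.56 on saline. Both E2 groups overlapped each other and lay above all saline arrays, by 4.16 ± 0.28 at 2 hr and 4.23 ± 0.28 at 24 hr. A second probe for *Chst8* differed by -2.52 between the times, so its place among held rises rests on the brighter probe. *Padi1* (chromosome 4), which converts arginine in proteins to citrulline, read 2.45, 3.74 and 3.81 at 2 hr, 2.79, 2.76 and 3.13 at 24 hr and -0.41, -1.34 and -0.58 on saline, and was above saline by 4.11 ± 0.34 and 3.67 ± 0.34. Replicate 1 was the lowest of the 2 hr arrays, as it was for *Chst8*.

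*Alpl* (chromosome 4), the tissue-nonspecific alkaline phosphatase, listed on the array as Akp2, read 1.47, 2.17 and 1.48 at 2 hr, 1.80, 1.30 and 2.05 at 24 hr and -2.40, -1.23 and -2.15 on saline. It was above saline by 3.63 ± 0.39 and 3.64 ± 0.39, with E2 groups that overlapped. *Ngfr* (chromosome 11), a neurotrophin receptor, read 4.02, 4.17 and 4.0 at 2 hr, 3.41, 3.70 and 3.91 at 24 hr and 1.07, 0.68 and 0.52 on saline, and was above saline by 3.31 ± 0.17 and 2.92 ± 0.17. Its 24 hr arrays were slightly under its 2 hr arrays, without overlap, by less than 2-fold.

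*Gjb2* (chromosome 14), the gap junction protein connexin 26, read 2.18, 2.71 and 2.04 at 2 hr, 2.98, 2.98 and 3.19 at 24 hr and 0.13, -0.22 and -0.13 on saline. It was above saline by 2.39 ± 0.15 and 3.13 ± 0.15. Its second probe differed by 1.05 between the times, so its place among held rises rests on the brighter probe. *Fkbp11* (chromosome 15), a folding enzyme of secretory cells, read 2.14, 3.16 and 2.91 at 2 hr, 2.71, 2.87 and 2.86 at 24 hr and -0.35, 0.16 and -0.68 on saline, but its second probe differed by -1.73 between the times. The class as a whole had a median difference of -0.02 between the times and stood 1.41 above saline at 2 hr and 1.4 at 24 hr in the median.

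**Figure D4:**
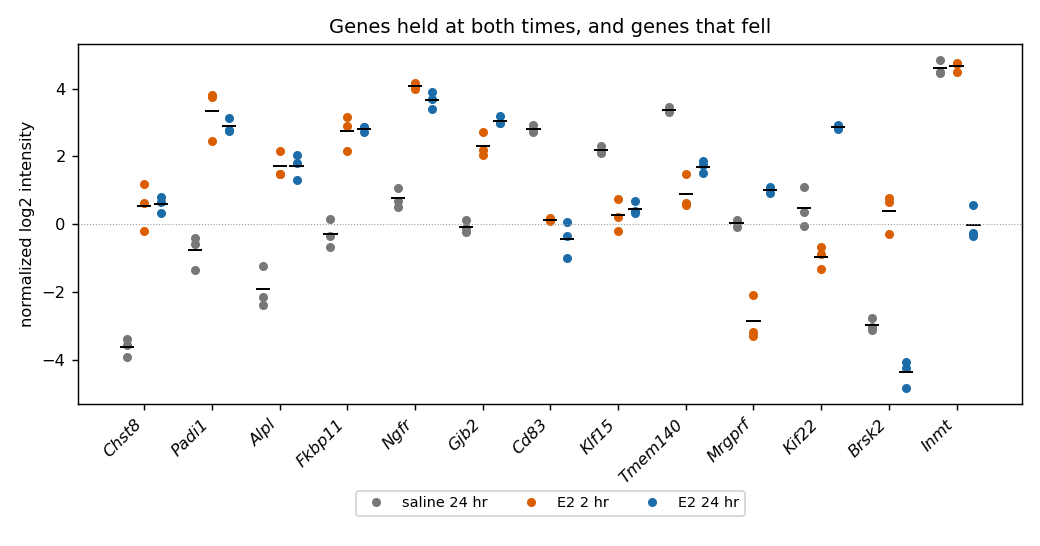
Normalized log2 intensity (y axis) on each saline 24 hr, E2 2 hr and E2 24 hr array for 6 held rises, 3 held falls, the recovering falls *Mrgprf* and *Kif22* and the late falls *Brsk2* and *Inmt*. Points are single arrays and black bars are group means. The held genes sit on one side of saline at both times, whereas *Inmt* is at its saline level at 2 hr and low at 24 hr.

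Held falls are named here only where the mean of the probe was bright at 2 hr or at 24 hr. *Cd83* (chromosome 13), a surface protein of mature dendritic cells, read 0.18, 0.08 and 0.13 at 2 hr, 0.07, -0.35 and -1.0 at 24 hr and 2.92, 2.74 and 2.72 on saline, a fall from saline of 2.66 ± 0.26 and then of 3.22 ± 0.26. *Klf15* (chromosome 6), a Kruppel-like factor, was -1.92 ± 0.23 from saline at 2 hr and -1.72 ± 0.23 at 24 hr, and *Tmem140* (chromosome 6) was -2.49 ± 0.23 and -1.68 ± 0.23. Second probes for *Klf15* and *Tmem140* differed by 1.11 and 1.70 between the times.

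Recovering falls went below saline at 2 hr and were higher again at 24 hr. *Mrgprf* (chromosome 7), an orphan receptor, read -2.08, -3.18 and -3.30 at 2 hr, 1.08, 0.92 and 1.03 at 24 hr and 0.12, -0.10 and 0.07 on saline. It was -2.88 ± 0.26 from saline at 2 hr and then 3.86 ± 0.26 higher at 24 hr, above every saline array. *Kif22* (chromosome 7), a chromosome-moving kinesin, read -1.33, -0.88 and -0.68 at 2 hr, 2.80, 2.94 and 2.86 at 24 hr and 0.37, 1.1 and -0.07 on saline, and was higher by 3.83 ± 0.30 at 24 hr. *Ptgfr*, the prostaglandin F receptor, recovered only in part, with means of 0.22 on saline, -4.39 at 2 hr and -0.69 at 24 hr.

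Of the late falls, *Inmt* was the plainest. This gene (chromosome 6), a methyltransferase of indoles and other amines, read 4.83, 4.46 and 4.49 on saline, 4.76, 4.48 and 4.73 at 2 hr and -0.26, 0.58 and -0.35 at 24 hr. The 2 hr arrays lay within the saline range and the 24 hr arrays were far below, a fall of 4.67 ± 0.26 (adjusted p = 2e-08). *Brsk2* (chromosome 7), a kinase known from neurons, rose by 3.35 ± 0.30 over saline at 2 hr and then fell by 4.76 ± 0.30 to end under saline.

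Of 21 clock genes, 11 were lower at 24 hr and 1 was higher, against 16.3% and 14% of all genes, with a median of -1.18. *Nfil3* fell by 3.62 ± 0.17, *Cry2* by 2.98 ± 0.16 and *Per2* by 2.92 ± 0.18, and *Dbp*, an output gene of the clock, was higher by 1.66 ± 0.18. The means of *Dbp* were 5.14 on saline, 2.95 at 2 hr and 4.62 at 24 hr. The clock hour of collection is not given in the sources used here, so hour and time after E2 cannot be told apart. In the interferon and antigen presentation list 9 of 28 were higher at 24 hr, against 14% of all genes, but 5 of the 28 had been called below saline at 2 hr (10.7% of all probes), 2 were above saline at 24 hr (6.93%) and the median against saline at 24 hr was -0.04. The largest differences between the times were *Tap1* at 2.39 ± 0.40 and *Oas2* at 2.24 ± 0.20. Summed macrophage markers were 7.79 to 12.4 at 2 hr, 17.3 to 22.9 at 24 hr and 12.2 to 23.9 on saline. Those of B cells and lymph node were 3.94 to 5.27, 6.03 to 21.2 and 6.02 to 38.2 in the same order. Called higher at 24 hr than at 2 hr were 1 of 8 macrophage markers and 0 of 16 of B cells and lymph node, against 14% of all genes. The part of these cells was not tested.

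The lists that follow had calls in both directions, to be read against 14% of all genes higher and 16.3% lower. Of 25 Hox and patterning genes, 3 were higher (*Sox11*, 2.00, *Sox4*, 1.65, and *Hoxa9*, 1.28) and 2 were lower (*Sox9*, -2.38, and *Sox8*, -1.48). The 3 higher genes were lowest at 2 hr and still below saline at 24 hr in the mean. Means on saline, at 2 hr and at 24 hr were -2.25, -5.53 and -3.53 for *Sox11*. They were 1.93, -1.03 and 0.62 for *Sox4*, and 1.35, -0.82 and 0.46 for *Hoxa9*. The value of *Sox11* is that of its brightest probe, and its 5 other probes were all lower at 24 hr. Of 23 smooth muscle genes, 7 were higher and 4 lower, *Oxtr* among the latter. Of 20 genes of water and ion transport, 4 were higher, led by *Car2* (carbonic anhydrase 2, 3.26 ± 0.16), and 5 were lower, among them *Scnn1a* (a subunit of the epithelial sodium channel, -2.51 ± 0.28). *Aqp4* was higher by 3.21 ± 0.45, although only 2 of its 3 spots at 2 hr were well above background. Of 19 transporters of amino acids and glucose, 3 were higher (*Slc6a14*, 2.05, *Slc7a2*, 1.17, and *Slc1a4*, 1.12) and 2 lower (*Slc7a5* and *Slc2a3*, -2.46).

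**Figure D5:**
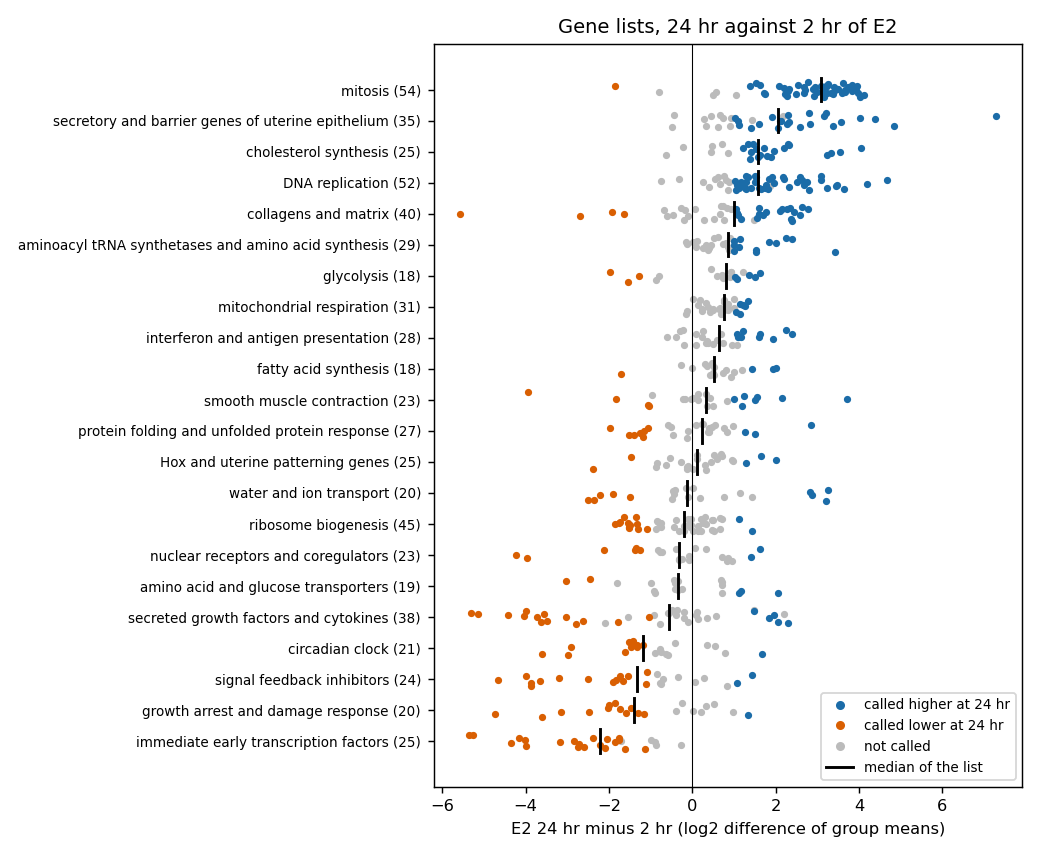
Difference of E2 24 hr minus 2 hr (x axis, log2) for each measured gene of the gene lists, with the number of genes in parentheses and lists ordered by median. Blue points were called higher at 24 hr, orange points lower, grey points were not called, and black bars are medians. The panels of early and late transcripts are not drawn. Of the lists drawn, mitosis has the highest median (3.1) and immediate early transcription factors the lowest (-2.23).

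The same contrast of time for E3, in 6 other arrays of 1 strain and 1 scanner, ran the same way for part of the probes. For E3, 9.65% of probes were higher and 6.46% lower at 24 hr. Of the probes higher for E2, 38.6% were also called higher for E3 (55.5% of the E3 calls), and 11 were called lower. Of those lower for E2, 28.7% were also lower for E3 (76.5% of the E3 calls), and 46 were called higher. Among bright probes the order turned, with 28.6% of the higher and 38.2% of the lower E2 calls shared with E3. By class, 52.7% of the fading rise was called lower at 24 hr for E3 and 32.1% of the late rise was called higher. *Fos* differed by -4.53 for E3 and -5.27 for E2, and *Arc* by -5.62 and -5.58. *Tk1* differed by 1.6 for E3 and 4.68 for E2, and *Crtac1* by 1.78 and 5.76. Among held rises, *Ngfr* differed by -4.21 for E3 and -0.39 for E2. The median difference over all probes was 0.12 for E3.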

How the data were processed

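The authors hybridised Cy3-labelled cRNA from total RNA of each uterus to 1-colour Agilent whole mouse genome arrays and extracted them with Agilent Feature Extraction 9.5.3.1, whose header names build mm7. The deposited intensity is the processed signal of each spot, already background-subtracted by the authors' software. Of 45018 spots, control spots and outlier flags were left out, spots of a probe were averaged, and log2 intensity minus each array's 75th percentile was taken. A probe entered the test if 2 or more arrays of some group had it well above background (34776 in all, 34766 between the E2 times). A limma fit (limma 3.58.1, R 4.3.3) of 5 group means over 15 arrays had 10 residual degrees of freedom, so E3 arrays share in the estimate of spread. The labels say each uterus was homogenized singly. The methods describe pooled tissue. Symbols came from RefSeq by accession for 20691 probes and by name for 8010, and 6075 kept the array's name. Precision is limited by the small number of arrays.

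The members, classes and lists were chosen with earlier results of these data known. Class genes named were, with 1 probe a gene (the brightest), bright, well above background on all 6 E2 arrays and on no list of liver, pancreas, lymph node, blood, fat or skeletal muscle. The 8 largest fading and late rises, the 3 largest recovering and late falls (all without overlap), the 6 largest held rises and the 3 largest held falls were taken. The study's transcripts and up to 4 extreme called genes a list were added. This rule does not mention spots set aside. Keeping *Myod1* and *Dpf1* on 2 arrays was decided after their values were seen, and requiring 3 values would put *Fos* and *Pgf* in their places. Chosen after their values were seen were *Aqp8*, *Atf3*, *Cdc6*, *E2f1*, *Esr1*, *Hbegf*, *Ier2*, *Igf1*, *Il11*, *Junb*, *Lcn2*, *Ltf*, *Maff*, *Mki67*, *Muc1*, *Mvk*, *Myc*, *Pcna*, *Per2*, *Pgr* and *Vegfa*. Some genes are not reported here. The test was checked on simulated data. Alternatives were normexp background correction, other scalings, filters, thresholds, blocks and fits, and leaving out each of the 9 E2 and saline arrays.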

Additional observations from a re-analysis of the deposited data

Results flagged for a closer look

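For 15 of the 44 named genes reported here the difference of 24 hr minus 2 hr was called different between E2 and E3 (limma interaction term). Most of the 44 were picked by their E2 values, which enter this term, so a gap from E3 is favoured in advance. The share of all probes called for this term is not given here, so the count has no background beside it. The compound cannot be told apart here from the strain label, slides and scanner of the E2 2 hr arrays. In 4 genes the E2 difference was the more negative, by -6.88 for *Myod1* (2 arrays at E2 2 hr), -4.64 for *Dpf1* (likewise), -3.18 for *Inmt* and -2.57 for *Slc9a2*. In 11 it was the more positive. Among genes of division these were *Cdk1* (2.05), *Kif22* (2.11), *Aurkb* (2.41), *Tk1* (3.07) and *Mad2l1* (1.27), which fell by 3.13 after E3. Among held rises they were *Gjb2* (1.38), *Padi1* (2.64), *Chst8* (3.51) and *Ngfr* (3.82), of which E3 left all lower at 24 hr than at 2 hr in the mean. The others were *Muc20* (2.88) and *Crtac1* (3.99). Groups of 3 arrays were not tested for single arrays that stand apart.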

How the results depend on the processing

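Under 23 alternatives no value of a named gene reversed, and 1234 of 1242 kept their direction and call. The exceptions reported here were values that missed a 4-fold threshold (*Stat5a*, *Mad2l1* and *Cdkn1a* between the times, *Klf15* at both times and *Tmem140* at 24 hr against saline) and *Stat5a* with the E3 arrays left out. Dim probes depended on the background correction. Normexp gave 3210 probes higher and 2969 lower at 24 hr than at 2 hr, 1905 and 1880 at 2 hr against saline, 1571 and 1317 at 24 hr against saline, and 2212 and 1026 for E3. It left 1343 fading rises, 136 held rises, 1008 recovering falls, 573 late falls and 284 held falls, whereas among bright probes it gave 1702 higher, 1696 lower, 931 fading rises and 643 late rises. A filter on mean signal, which left 26815 probes, gave 524 held falls, and quantile normalization gave 67 bright held falls. Without scaling the median of all probes was -0.09. With the Benjamini-Hochberg threshold in place of the p-value, 26 named genes differed between E2 and E3, where the p-value gave 16, both counted with 1 gene not reported here.

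A 4-fold threshold gave 1245 higher and 1878 lower between the times, 1018 and 861 at 2 hr against saline, 586 and 605 at 24 hr against saline, and 613 and 629 for E3. The classes then held 725 fading rises, 417 late rises, 34 held rises, 259 recovering falls, 198 late falls and 115 held falls. With no minimum change the counts were 8440 and 9304, 6988 and 7339, 5900 and 7750, and 7254 and 4933 in the same order, and the classes held 5092, 3958, 1382, 4410, 4541 and 2084. These last shifts follow from the thresholds themselves, and the cause of the others was not tested.

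Leaving out each of the 9 E2 and saline arrays in turn (no E3 array was left out) gave 4450 to 4806 higher, 5604 to 6058 lower, 2426 to 2833 fading rises, 1375 to 1556 late rises, 240 to 318 held rises, 1673 to 1960 recovering falls, 1713 to 2019 late falls and 684 to 802 held falls. Same-numbered arrays of the E2 groups deviated together with correlations of 0.146, 0.0647 and 0.0489, so the numbers do not pair them. With the replicate number as a block, 4735 probes were higher and 5908 lower. The correlation within slides was -0.0125.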
